A study of Mus musculus with 2 samples.

Results

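The genes described here are the enzymes that add acetyl groups to histones, the enzymes that remove them, and the corepressors that carry the removing enzymes to chromatin. They were chosen by symbol. The names taken included the Kat and Hat1 acetyltransferases, Ep300, Crebbp, Ncoa1 to Ncoa3, Taf1, Gtf3c4, Brpf1 and Brpf3, every Hdac and Sirt gene, Sin3a and Sin3b, Ncor1, Mta1 to Mta3 and Rcor1 to Rcor3. This gave 45 of the 34650 gene names on the array, made up of 17 acetyltransferases and their scaffolds, 11 zinc-dependent deacetylases, 7 sirtuins and 10 corepressors. Each gene was read from its brightest probe, and all 45 were well above background on both arrays.

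Acetyl groups on the lysines of histone tails loosen the hold of the tail on DNA and are bound by reader proteins, and chromatin that carries them is as a rule open and transcribed. Acetyltransferases take the group from acetyl-CoA. Zinc-dependent deacetylases remove it by hydrolysis, and sirtuins remove it while consuming NAD. In the early embryo and in embryonic stem (ES) cells, both activities take part in opening and closing enhancers as cells leave the naive state, and most of the enzymes work inside large complexes whose other subunits choose the target.

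The 2 arrays compare cultured epiblast stem cells that were made in different ways from E14Tg2A, a mouse ES cell line of strain 129/Ola. EpiSC were obtained by giving ES cells FGF2 (12 ng/mL) and Activin A (20 ng/mL) directly. ELA-EpiSC received the same factors after the same ES cells, grown before either treatment in serum and LIF (1000 U/mL), had first formed Epiblast-Like Aggregates (ELA), the floating clusters that appear when serum and LIF are withdrawn. No transgene or drug is given in the labels for either group, and both lines of cells come from 1 parental line. Each array received RNA pooled from 3 independent sets of experiments, so there was 1 array per group, no comparison below has a replicate check and no p-value was computed. The source field of the labels names undifferentiated cells for both samples and an Argonaute immunoprecipitate for EpiSC, against the titles, descriptions and molecule fields, which were followed here. Values are normalized signal on the log2 scale and differences are ELA-EpiSC minus EpiSC. The yardstick of error is the SD of that difference over replicate spots, 0.10 over 328 probes printed 10 times, and it was between 0.10 and 0.12 at the signal of the individual genes. Labelling and culture add variation that this spot SD does not hold. With 2 arrays, their number limits the precision of every value.

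Both arrays measured the transcriptome to a similar extent, with 65.9% of 55681 probes well above background for EpiSC and 65.0% for ELA-EpiSC, and with 0 saturated spots. Of 3 pluripotency markers, Pou5f1 (14.27 and 14.46 for EpiSC and ELA-EpiSC) and Nanog (13.41 and 13.73) were bright on both arrays. Sox2 was dimmer, at 10.48 and 10.21, a difference of -0.27. The 3 Nanog probes gave differences from -0.31 to 0.32. The primed markers Fgf5 (15.19 and 15.34) and Otx2 (15.86 and 15.86) were bright on both as well, while Dnmt3b was lower in ELA-EpiSC (17.07 and 16.24) and Pou3f1 higher (12.56 and 14.02); the sum over these 4 was 240556 and 195023 units. Markers of other cells differed between the arrays. The summed signal of the 5 visceral endoderm markers was 9182 units for EpiSC and 579 for ELA-EpiSC, where Ttr and Apoa1 were not well above background; Hnf4a and Amn were lower there too, and Afp stood at 6.26 and 6.47. That of 5 ground-state markers was 5683 and 2771, with differences of -3.75 for Tbx3, -2.74 for Nr0b1 and -0.22 for Zfp42 but 0.16 for Klf4 and 0.43 for Esrrb. For 3 primitive streak markers the sums were 10251 and 23314 units, with differences of 2.48 for T, 1.97 for Mixl1 and 0.32 for Eomes. The neural sums were 6059 and 22841, with differences of 2.11 for Nes, 0.72 for Tubb3 and -0.09 for Sox1 and with Pax6 below the background call on both arrays. The mesenchyme sums of 3143 and 4923 held a difference of 3.72 for Col1a1, while those of Col1a2 (0.08) and Thy1 (0.05) were within the spot SD. The part of these cells in the values below was not tested, and in bulk RNA fewer cells of a type and less RNA per cell cannot be told apart.

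Across the 45 genes, acetyltransferases lay mostly above 0 and zinc-dependent deacetylases around it. Of the 45, 33 were higher in ELA-EpiSC and 12 lower, against 50.2% of the 16649 genes measured that were higher. The median difference was 0.29 for acetyltransferases, 0.20 for corepressors, 0.03 for sirtuins and -0.06 for zinc-dependent deacetylases, where that of all genes was 0.00. The last 2 medians changed sign with the scaling. The zinc-dependent deacetylase median became 0.080 with each array scaled to its median and 0.48 with the spike-in RNAs set equal, and the sirtuin median lay just below 0 under either 75th percentile scaling (of normexp values, or of the signal as the scanner software processed it), as well as with the deposited values and with median pixels. Median and spike-in scaling moved the median of all genes by 0.15 and 0.54. Set against the median of all genes under the same processing, acetyltransferases stood 0.25 to 0.38 higher and zinc-dependent deacetylases 0.05 to 0.16 lower in all 16 alternatives. An added constant cancels in this comparison. Spike-in scaling therefore repeats the reported values by construction, and median scaling repeats those of the 75th percentile after normexp.

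Large differences were few. Past 1.5-fold (0.585 on the log2 scale), 4 genes were higher in ELA-EpiSC, Hdac8, Ep300 and Kat7 among them, beside 11.1% of all genes measured. The 2 lower genes were Hdac6 and Sirt7, beside 10.9% of all genes. A difference of 1 or more was seen for 1 of the 45, Hdac6, beside 4.54% of all genes higher and 4.46% lower by that much. Of the 45, 36 differed by more than the overall spot SD of 0.10, which is 80% beside 79.7% of all genes. At that cut the share of these genes that differed was thus near the background. Past 1.5-fold and past 1 the shares lay below the background with the processing reported, on few genes. Closest to the 1.5-fold line were Kat7 at 0.617 and Sirt7 at -0.624 on the far side and Kat6b at 0.577 and Hdac7 at -0.577 on the near side.

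**Figure D1:**
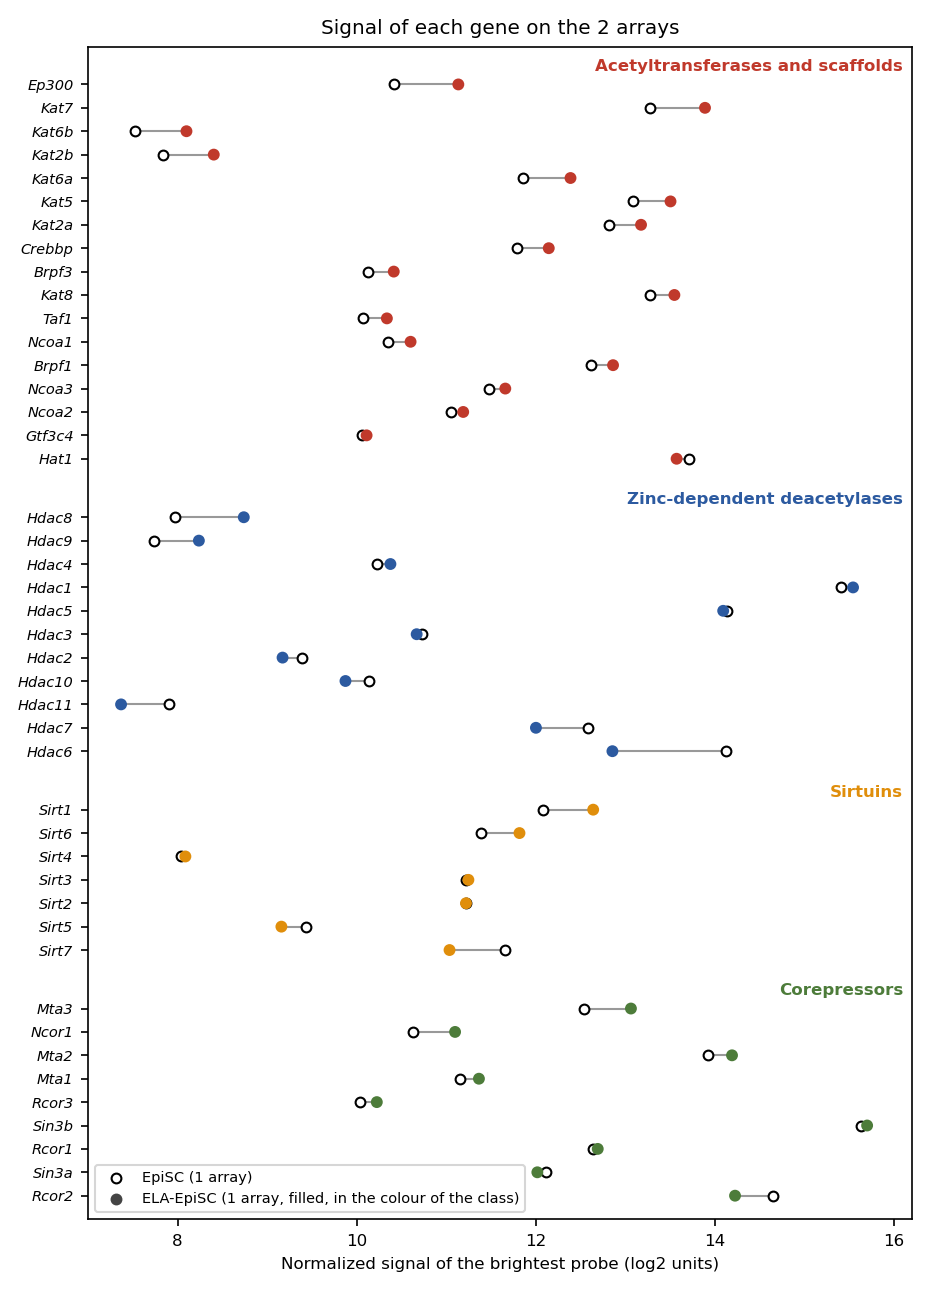
Normalized signal (log2 units) of the brightest probe of 44 of the 45 genes on the EpiSC array (open circles) and the ELA-EpiSC array (filled circles), grouped by class and ordered by the difference within each class. Hdac6 shows the longest line, from 14.13 to 12.85, and signals of different genes come from different probes and are not comparable with each other.

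Hdac6, Hdac8 and Ncor1 are best read with their probes in view, because the array carried more than 1 probe for each and the probes either repeated or contradicted each other. The first 30 of the 60 probe bases are printed, with positions on assembly mm9 as the array files give them. The capitals mark bases that both Hdac6 probes hold, and the Hdac8 and Ncor1 probes share no long run.
Hdac6 probe at chrX:7507261-7507320: acattgaaggagACAACGGGGCAGTGGCAG
Hdac6 probe at chrX:7507249-7507308: ACAACGGGGCAGTGGCAGCAGGTCAGCATA
Hdac8 brightest probe, ends at chrX:99503070-99597969: ggtcatcctagggaaaacgctatcctctga
Hdac8 second probe at chrX:99700320-99700379: aacagtgggcattcactacccccggtttat
Ncor1 brightest probe at chr11:62134649-62134708: tcaagaagccattcttttgctgatcccgcc
Ncor1 probe of opposite sign at chr11:62215073-62215132: agtacctgctaaaggtttcttttccctttt
The Hdac6 probes overlap by 48 of their 60 bases and are close to 1 measurement made over again. The Hdac8 and Ncor1 probes lie at separate places in their genes. Whether a probe falls in coding sequence or beyond it was not analysed here.

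Among the acetyltransferases, the p300/CBP pair stood 0.36 and 0.72 higher in ELA-EpiSC. Ep300 encodes p300, which acetylates histone H3 at active enhancers. Its signal was 10.42 in EpiSC against 11.13 in ELA-EpiSC. The difference was 0.72, and under the alternatives it ranged from 0.71 to 1.25. Crebbp, its close relative CBP, read 11.78 and 12.14, a difference of 0.36, and its dimmer second probe gave 0.46.

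The MYST family was higher in ELA-EpiSC for 5 of 5 genes, with a median difference of 0.54, and none of the 5 changed sign under any alternative. Kat7 (HBO1), which acetylates histone H3 and H4 near replication origins and promoters, read 13.27 in EpiSC and 13.89 in ELA-EpiSC. Kat6a and Kat6b encode the paralogues MOZ and MORF. Kat6a stood at 11.85 and 12.39. Kat6b stood at 7.52 and 8.10, and its second probe gave 0.22 in place of 0.58. Kat5, known as Tip60, is the catalytic subunit of the NuA4 complex. It read 13.09 and 13.50, a difference of 0.42, with 0.47 from its second probe.

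Kat8 encodes MOF, which acetylates lysine on histone H4, and its probe was printed 10 times on each array. The spots of the EpiSC array ran from 13.05 to 13.46 (SD 0.16) and those of the ELA-EpiSC array from 13.29 to 13.81 (SD 0.18), so the 2 sets overlap. Taken spot by spot at the same place on the array, the difference was 0.27 ± 0.06 (SD, 10 spots) and higher in ELA-EpiSC for 10 of 10. These spots share 1 RNA pool per group. The MYST scaffolds Brpf1 and Brpf3, which hold Kat6a, Kat6b or Kat7 on chromatin, gave 0.24 and 0.29.

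The GNAT family was mixed. Kat2a (Gcn5), the catalytic subunit of the SAGA and ATAC coactivators, read 12.81 and 13.17, which is 0.36 higher in ELA-EpiSC, while its second probe gave 0.15. Its paralogue Kat2b (PCAF) was dim on both arrays, at 7.83 and 8.40, a difference of 0.57. Hat1 acetylates newly made histone H4 before it is laid into chromatin. It was the 1 gene lower in ELA-EpiSC among the 17 acetyltransferases chosen by name. It read 13.71 and 13.57, and its 2 probes gave -0.14 and -0.13, a direction that turned under median scaling (0.02) and spike-in scaling (0.40).

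The remaining acetyltransferase genes differed little. The nuclear receptor coactivators Ncoa1, Ncoa2 and Ncoa3 gave 0.25, 0.13 and 0.18, and the 3 probes of Ncoa1 lay between 0.20 and 0.33. Taf1, the largest subunit of the general factor TFIID, gave 0.27. Gtf3c4, a subunit of the RNA polymerase III factor TFIIIC, gave 0.05, within the spot SD, and turned to -0.04 with the scanner's processed signal at its 75th percentile.

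**Figure D2:**
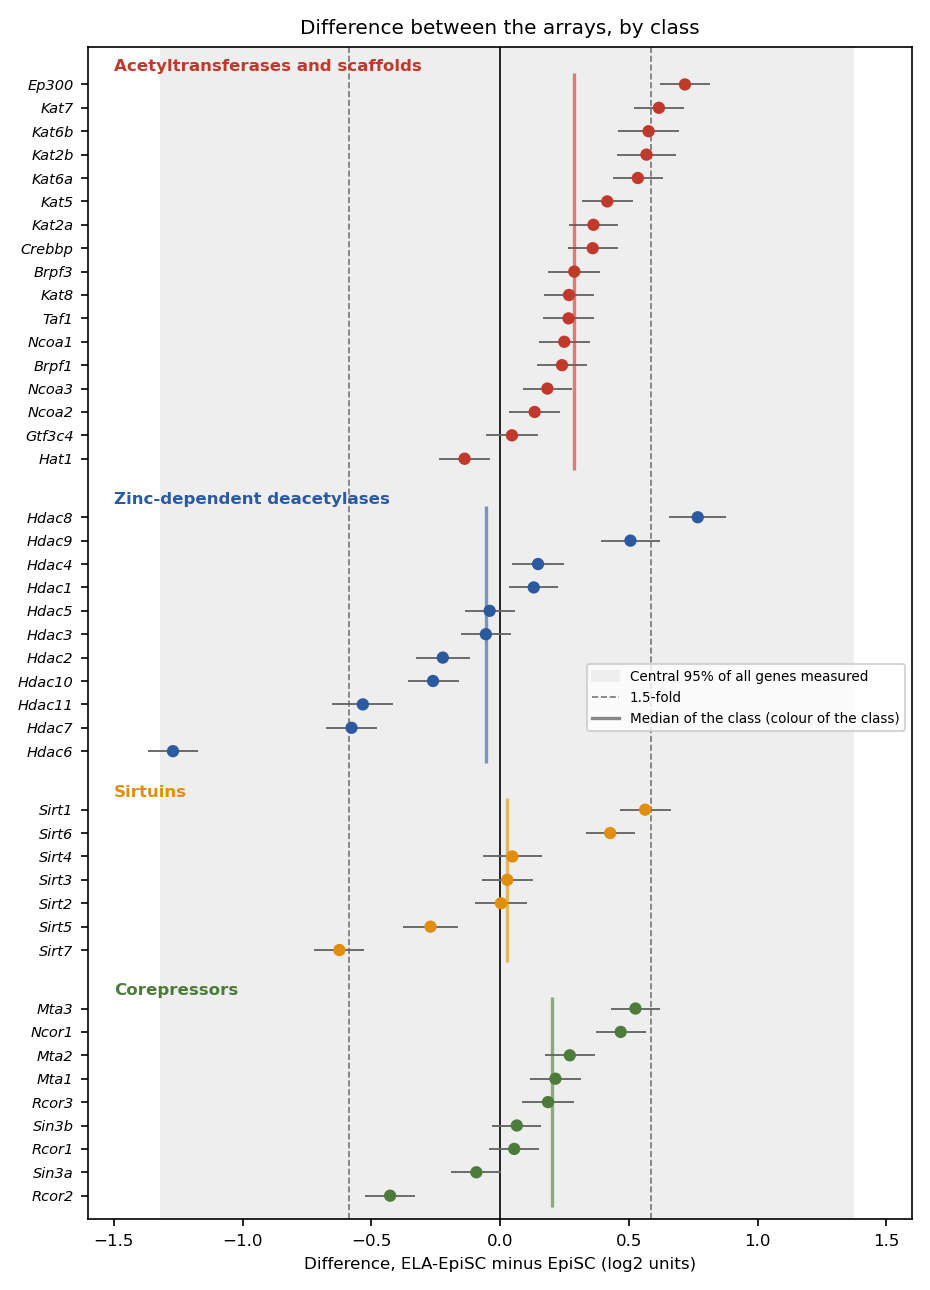
Difference between the arrays (ELA-EpiSC minus EpiSC, log2 units) for 44 of the 45 genes, with bars of 1 spot SD to each side at the signal of the gene, dashed lines at 1.5-fold, coloured lines at the median of all genes of each class and grey for the central 95% of all genes measured (-1.32 to 1.37). Of 17 acetyltransferases 16 lie above 0 (15 to 17 under the scalings), whereas zinc-dependent deacetylases lie on both sides, with 4 of 11 above 0 (3 to 9 under the scalings).

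Class I deacetylases are the nuclear enzymes of the large corepressor complexes, and apart from Hdac8 they differed by at most 0.22 between the cultures. Hdac1, shared by the SIN3, NuRD and CoREST complexes, read 15.41 in EpiSC and 15.54 in ELA-EpiSC, with 3 probes from -0.03 to 0.26, and turned negative under either 75th percentile scaling and with the second brightest probe. Hdac2, its partner in the same complexes, read 9.39 and 9.17, a difference of -0.22. Over 9 of its 10 spots (1 EpiSC spot was left out as an outlier) the paired difference was -0.20 ± 0.07 (SD) and lower in ELA-EpiSC for 9 of 9, but it became 0.31 under spike-in scaling. Hdac3, the catalytic subunit of the NCoR complex, read 10.72 and 10.67. That difference of -0.06 was within the spot SD and turned under median scaling (0.19) and spike-in scaling (0.48).

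Hdac8, a class I enzyme that works on cohesin as well as on histones, had the largest positive difference of the 45 genes, and its probes differed. Its brightest probe read 7.97 in EpiSC and 8.74 in ELA-EpiSC, or 201 and 434 units of raw signal. Its second probe, dimmer still, read 6.80 and 6.84, a difference of 0.03. Between the 2 brightest probes of a gene, this gap of 0.74 was the widest among the 20 genes with a second probe that both arrays detected. The Ncor1 probe of opposite sign is not among the 2 brightest of its gene and is left out of that comparison.

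Class IIa deacetylases shuttle between nucleus and cytoplasm and restrain MEF2 transcription factors. Hdac4 gave 0.15 and Hdac5 -0.04, the latter turning positive under median scaling (0.08) and spike-in scaling (0.49). Hdac7 was lower, at 12.58 in EpiSC and 12.00 in ELA-EpiSC. Hdac9 was near the lower end of the scale, at 7.73 and 8.24, and of its 2 probes the second was well above background for ELA-EpiSC but not for EpiSC. Hdac7 and Hdac9, the outer members of the class, thus pointed in opposite directions.

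Class IIb and class IV were lower in ELA-EpiSC for 3 of 3 genes, though Hdac10 and Hdac11 turned under spike-in scaling (0.28 and 0.00). Hdac6 is largely cytoplasmic and deacetylates α-tubulin and the chaperone HSP90, so its best known substrates are not histones. It read 14.13 in EpiSC and 12.85 in ELA-EpiSC, 2.41-fold lower, and its overlapping second probe read 13.95 and 12.70. The raw signal was 16799 units for EpiSC and 8022 for ELA-EpiSC, so the order held before any normalization. The difference of -1.27 was about as far from 0 as the central 95% of genes extends, since 5.64% of all genes measured differed by more, and it ran from -1.35 to -0.73 under the alternatives. Hdac10, its class IIb relative and a polyamine deacetylase, read 10.13 and 9.87, a difference of -0.26, with -0.16 from a second probe. Hdac11, the sole class IV enzyme, read 7.90 and 7.37.

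**Figure D3:**
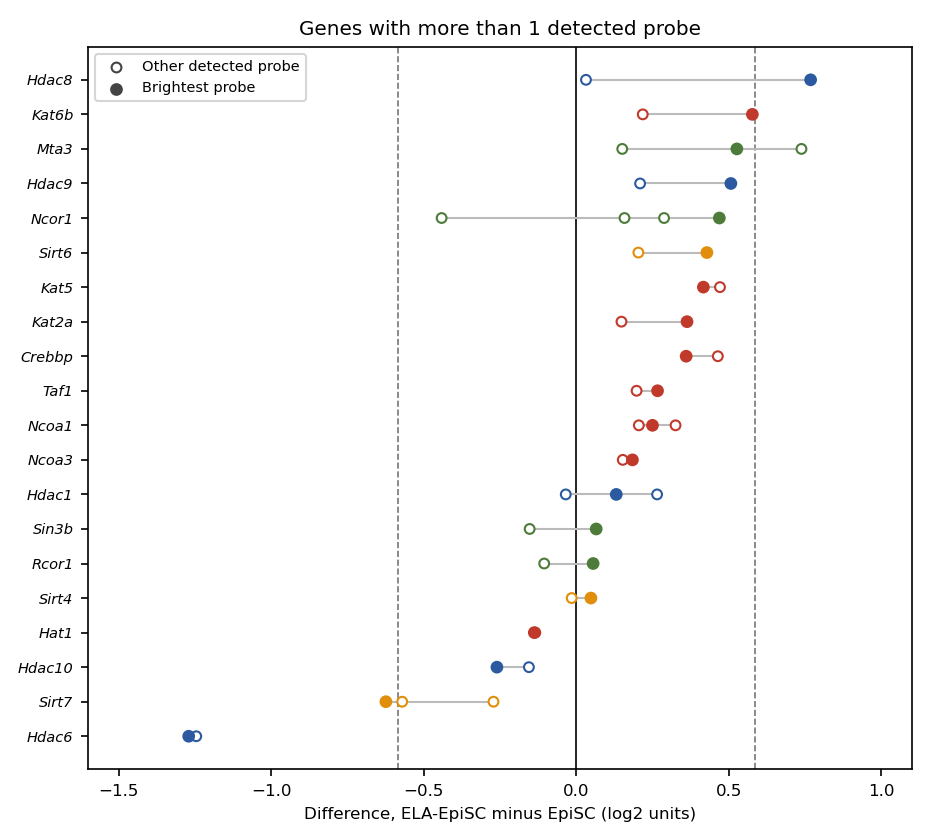
Difference between the arrays (ELA-EpiSC minus EpiSC, log2 units) for each detected probe of genes that had more than 1 (1 such gene is not plotted), with the brightest probe filled, the others open and dashed lines at 1.5-fold; colours mark the classes as in the plot of differences by class. The 2 Hdac6 probes coincide near -1.25, the 2 Hdac8 probes lie 0.74 apart and 1 of the 4 Ncor1 probes lies on the opposite side of 0.

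Sirtuins divided by gene. Sirt1, the nuclear sirtuin that deacetylates histones and p53, read 12.08 and 12.64, which is 0.56 higher in ELA-EpiSC. Sirt6, a nuclear deacetylase of histone H3, gave 0.43 and its second probe 0.20. Sirt7, which resides in the nucleolus, was lower. It read 11.66 and 11.04, a difference of -0.62, and its 3 probes lay between -0.62 and -0.27. These 3 nuclear and nucleolar genes kept their sign under every alternative run.

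The other sirtuins were close to 0. Cytoplasmic Sirt2 gave 0.00. Among the mitochondrial sirtuins, Sirt3 gave 0.03 and Sirt4 read 8.04 and 8.09, all 3 within the spot SD and of no fixed sign across the scalings. Sirt5, a mitochondrial desuccinylase, gave -0.27, which became 0.27 under spike-in scaling.

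Corepressor scaffolds recruit the deacetylases to DNA-bound factors. Of the 10 genes 8 were higher in ELA-EpiSC (6 to 10 under the scalings). Ncor1, the scaffold that holds Hdac3, read 10.63 and 11.10, a difference of 0.47. Its 4 probes did not point the same way, since the second of its probes printed above read 8.67 and 8.23, a difference of -0.44 that exceeds the spot SD. With the mean of its probes in place of the brightest, Ncor1 stood at 0.12.

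The MTA proteins are the subunits around which the NuRD complex assembles, and 3 of 3 were higher in ELA-EpiSC under every alternative. Mta1 read 11.15 and 11.36. Mta2 gave 0.27, and Mta3 gave 0.53 with 3 probes between 0.15 and 0.74. The SIN3 scaffolds were close to 0. Sin3a read 12.11 and 12.02, a difference of -0.09 that turned under median scaling (0.12) and spike-in scaling (0.44). Sin3b read 15.63 and 15.70, with -0.15 from its second probe, and turned negative under either 75th percentile scaling.

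Of the CoREST scaffolds, Rcor1 read 12.64 in EpiSC and 12.69 in ELA-EpiSC, within the spot SD, with -0.11 from its second probe and a negative value with the scanner's processed signal at its 75th percentile. Rcor2, the paralogue that is abundant in ES cells, gave -0.43, with 14.65 and 14.22, and became 0.11 under spike-in scaling. Rcor3 read 10.04 and 10.22.

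Where more than 1 probe could be compared, the second probe usually gave the sign of the first. For the 20 genes where both arrays detected a second probe, the 2 brightest probes had the same sign in 16, with a median gap of 0.16. Ncor1 counts among these 16, because its probe of opposite sign is dimmer than its 2 brightest. Their differences correlated across genes at r = 0.87, and at r = 0.72 over the 19 genes other than Hdac6, whose probes share most of their bases; genes are not independent replicates. For 24 of the 45 genes 1 probe was detected, so no such check exists.

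Before normalization, 39 of the 45 genes were brighter on the ELA-EpiSC array, which was the brighter array as a whole (median spot signal 79.1 units against 71.7). The 6 genes with less raw signal on it were Hdac6, Hdac7, Hdac11, Sirt5, Sirt7 and Rcor2. After normalization, by contrast, the spike-in RNAs stood lower on the ELA-EpiSC array, with a mean of -0.54 over the 8 detected of 10 (-0.86 to -0.26). With the mean of the spike-ins set equal by 1 constant, 42 of the 45 genes were higher in ELA-EpiSC and Hdac6, Hdac7 and Sirt7 were lower, at -0.73, -0.04 and -0.09. Of all genes measured, 87.5% were higher under that scaling, so the count of 42 is near the background. Across the scalings the share of all genes that were higher ran from 43.1% to 87.5%.

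**Figure D4:**
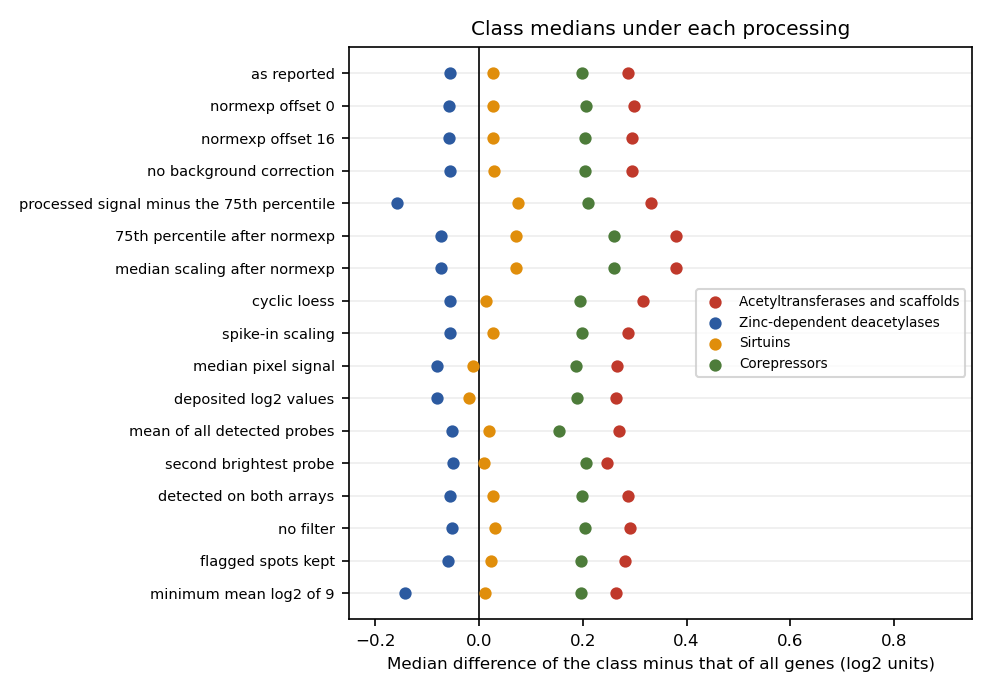
Median difference of each class minus the median difference of all genes (log2 units) for the processing reported and for 16 alternatives. Acetyltransferases lie farthest to the right on every line (0.25 to 0.38 among the alternatives), zinc-dependent deacetylases lie left of 0 on every line (-0.16 to -0.05), and sirtuins cross 0.

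The partners of these enzymes were listed by complex and by the supply of their cofactors, 170 entries in 12 lists, of which 160 were measured. Their median difference was 0.14, with 103 higher and 57 lower in ELA-EpiSC, that is 64.4% higher beside the 50.2% of all genes. Of the 160, 9 differed by 1 or more (5 higher, 4 lower), beside 4.54% of all genes higher and 4.46% lower by that much. Partners of the acetyltransferases went both ways within each list, more often higher. Higher were 13 of 21 in the SAGA and ATAC list, 9 of 15 in NuA4 and 11 of 14 in the other MYST complexes. The 21 measured SAGA and ATAC subunits had a median of 0.06 (-0.01 with the processed signal), and the largest difference was that of Taf6l, a SAGA subunit, at 9.43 in EpiSC and 8.40 in ELA-EpiSC. The 15 NuA4 subunits had a median of 0.14, below 0 under either 75th percentile scaling and in both alternative probe choices, and ran from -0.51 for Yeats4, which turned to 0.03 under spike-in scaling, to 0.52 for Epc1, whose 3 probes ran from -0.57 to 0.52. Among 14 subunits of the other MYST complexes the median was 0.14, and Jade2, a scaffold of the Kat7 complex, read 11.74 and 13.32, a difference of 1.57 that ranged from 1.51 to 2.11.

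Deacetylase partners held the largest single difference. Chd5, a remodelling ATPase of NuRD known mainly from neurons, read 8.22 and 10.23, which is 2.02 higher in ELA-EpiSC. The NuRD list as a whole had a median of 0.25, which was -0.01 with the processed signal and -0.17 with the second brightest probes. The 15 SIN3 subunits had a median of -0.01, from -0.64 for Sap30l to 0.41 for Rbbp7. In the CoREST list (median 0.07) Gfi1, a zinc finger repressor that recruits the complex, read 9.11 and 8.02. The NCoR and MiDAC list, in which the Mier genes were placed too, had the highest median, 0.44. It ran from -0.29 for Mier2, which turned to 0.24 under spike-in scaling, to 0.94 for Elmsan1, a MiDAC scaffold. Around the class IIa enzymes 12 of 15 partners were higher, with a median of 0.25. Mef2b, a MEF2 factor that these enzymes restrain, stood at 10.38 and 11.87, though its second probe gave 0.47.

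**Figure D5:**
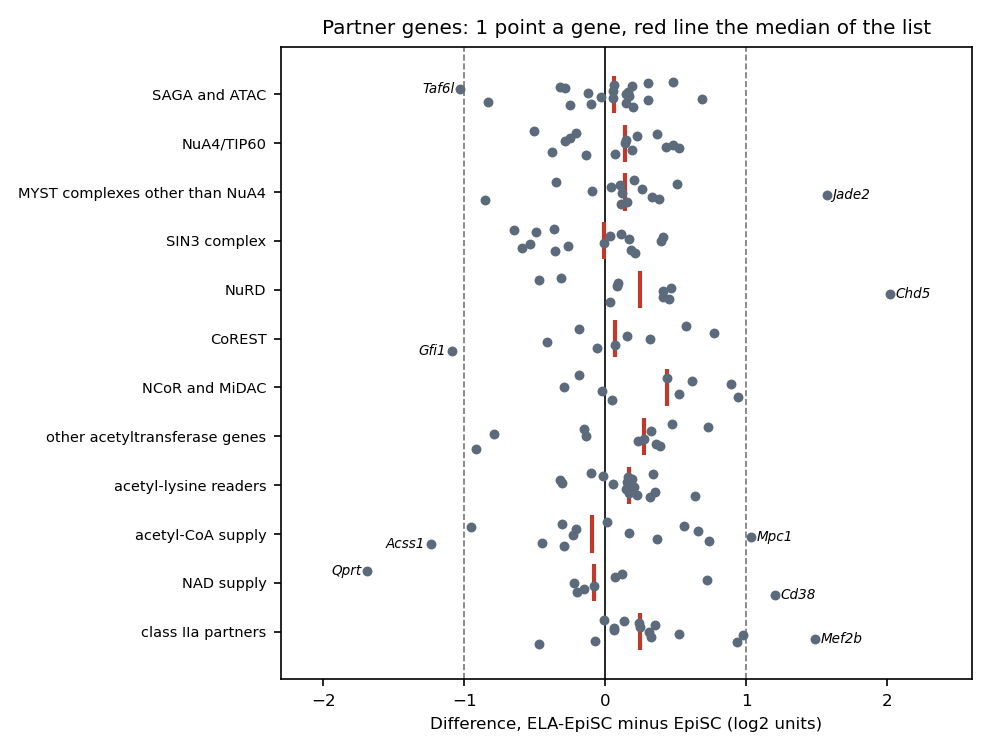
Difference between the arrays (ELA-EpiSC minus EpiSC, log2 units) for the measured genes of 12 partner lists, 1 point a gene, with a red line at the median of each list, dashed lines at -1 and 1 and names beside the genes past them. List medians run from -0.10 for acetyl-CoA supply to 0.44 for NCoR and MiDAC, those of the SIN3, acetyl-CoA and NAD lists turn positive under median and spike-in scaling, and those of the SAGA and ATAC, NuA4 and NuRD lists turn negative with the processed signal.

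The list of other genes linked to acetyltransferase activity, none of them a member, had a median of 0.27 over 11 genes. Atat1, which acetylates the α-tubulin that Hdac6 deacetylates, was lower in ELA-EpiSC, at 11.34 and 10.42, a difference of -0.92 with its probes between -0.92 and -0.48. Atat1, a writer of this tubulin mark, and Hdac6, an eraser of it though not the only possible one, were thus both lower in ELA-EpiSC. The highest of that list was Naa60, an N-terminal acetyltransferase, at 0.73. The 18 acetyl-lysine readers, mostly bromodomain proteins, were higher for 14 with a median of 0.17, from -0.32 for Mllt1 (0.21 under spike-in scaling) to 0.63 for Atad2b.

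Cofactor supply was divided. The 14 genes of acetyl-CoA supply were even, 7 higher and 7 lower, with a median of -0.10. That list mixes pyruvate dehydrogenase subunits with the kinases that inhibit the enzyme, so its median does not give a direction of supply. The subunits Pdha1 (0.16), Pdhb (0.65), Dlat (0.74) and Dld (0.36) were higher. The 3 probes of Pdhb lay between 0.56 and 0.65, but the second Dld probe gave 0.04, within the spot SD. Of the kinases, Pdk1 (-0.21), Pdk2 (-0.95, and -0.47 from its second probe) and Pdk4 (-0.31) were lower and Pdk3 (0.56) higher. Pdk1 and Pdk4 turned under spike-in scaling (0.33 and 0.23). Acss1, the mitochondrial acetyl-CoA synthetase, read 10.82 in EpiSC and 9.58 in ELA-EpiSC, and Mpc1, a subunit of the mitochondrial pyruvate carrier, was 1.03 higher from 11.97 in EpiSC. In the NAD list of 9 genes (median -0.08), Qprt, which makes NAD from the tryptophan pathway, read 11.77 and 10.08, a difference of -1.69. Cd38, which breaks NAD down, read 8.65 and 9.86.

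Promoter sequence was available for 37 of the 45 genes, as 49 stretches of 250 bases upstream of a RefSeq start site (assembly GRCm38.p6). Mta3, Hdac3, Hdac10, Ncoa3, Hdac1, Ncoa2 and Kat6a were among those with no entry. On either strand, the GC box GGGCGG was found in 69.4% of the 49 against 32.7% of all 32851 promoters of that length, and the median number of CpG was 17 against 6. The 32851 were not limited to genes detected here, as all 45 were, so whether these shares are particular to the 45 was not tested. Some genes, such as Hdac7 and Kat6b, entered with more than 1 stretch, and those of Kat6b overlap and hold 8 GC boxes each. The CCAAT box was found in 36.7% against 33.8%, the ETS motif CCGGAAG in 12.2% against 6.91%, the E box CACGTG in 8.16% against 6.02% and the TATA box TATAAA in 6.12% against 12.4%. The motif TGACGTCA was in 0 of the 49, against 1.55% of all. Promoters are printed for the gene lowest and for the acetyltransferase highest in ELA-EpiSC, with the GC box and, for Hdac6, the CCAAT box in capitals on either strand.
Hdac6, minus strand, chrX:7947890-7948139: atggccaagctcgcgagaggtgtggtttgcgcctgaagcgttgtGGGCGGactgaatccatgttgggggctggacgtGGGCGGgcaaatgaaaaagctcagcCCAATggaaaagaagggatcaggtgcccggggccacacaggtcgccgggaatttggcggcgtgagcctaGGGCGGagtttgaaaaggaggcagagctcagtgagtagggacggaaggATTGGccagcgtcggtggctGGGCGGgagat
Ep300, plus strand, chr15:81585964-81586213: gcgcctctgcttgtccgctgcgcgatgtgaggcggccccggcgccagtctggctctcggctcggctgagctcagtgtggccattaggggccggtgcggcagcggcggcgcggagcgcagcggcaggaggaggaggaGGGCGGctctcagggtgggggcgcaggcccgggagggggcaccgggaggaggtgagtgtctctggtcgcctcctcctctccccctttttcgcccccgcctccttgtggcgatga
The Hdac6 stretch held 4 GC boxes and 2 CCAAT boxes and that of Ep300 held 1 GC box, which describes the letters and not the binding of any factor.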

How the data were processed

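RNA of EpiSC and of ELA-EpiSC was measured on 1 one-colour Agilent SurePrint G3 mouse array each. Spot intensity with its local background, on a linear scale, came from the deposited scanner files, made with Feature Extraction 10.7.3.1 per the file headers (9.1 in the submitters' processing notes); both arrays lay on 1 slide and were scanned together. A table of log2 values deposited by the authors, background-corrected and quantile normalized with limma at an offset not given in the sources used here, served as an alternative. From the mean signal and median background, values were computed with limma 3.58.1 in R 4.3.3 by normexp with an offset of 50. Control spots and 158 and 117 flagged spots were left out, the arrays were quantile normalized, and spots of a probe were averaged on the log2 scale. Quantile normalization hides a shift shared by all genes, and the offset compresses differences of dim genes. A gene took its brightest probe among those well above background on at least 1 array, and was measured with a mean log2 of at least 7.5. Array names were used; 70 of 73 member probes matched a RefSeq accession, with the same symbol for all 70. The array name Csrp2bp, now Kat14, lies outside the choice of names. The normalization was tested on simulated data, a copy of the EpiSC array with known changes put into some spots. That run does not show how well it holds for the real pair of arrays. With 1 array per group, no test was made. For 1 corepressor gene, counted in the totals, values are not reported here.

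Members and lists were chosen with earlier results of these data known. Levels on both arrays are given for genes past 1.5-fold, detected on 1 array only or with probes of opposite sign beyond the spot SD, for the brightest and dimmest gene of each class by mean log2 over both arrays, for 13 well-known genes, and for some further members chosen after their values were seen. Of the partner lists, genes past 1 are named, or else the largest difference in each direction. Pooling averaged the cultures inside each RNA, so variation between cultures cannot be seen. Alternatives changed the background correction, scaling, probe choice, filter or threshold one at a time, except that the scanner's processed signal came with 75th percentile scaling and the deposited values differ in several choices.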

Additional observations from a re-analysis of the deposited data

How the results depend on the processing

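None of the 6 genes past 1.5-fold changed sign under the 15 alternatives that give a value for each gene. Of the other 39 genes 16 did, each under at least 1 scaling. Scaling moved the class medians most. With each array scaled to its median they were 0.53 (acetyltransferases), 0.41 (corepressors), 0.22 (sirtuins) and 0.080 (zinc-dependent deacetylases), and with spike-ins set equal 0.82, 0.74, 0.56 and 0.48; a constant was added in the latter by construction. Zinc-dependent deacetylases were at -0.23 with the scanner's processed signal scaled to its 75th percentile, and at -0.15 with that scaling of normexp values. Genes higher and lower past 1.5-fold, 4 and 2 as reported, were 2 and 5 with the 75th percentile scaling after normexp, 14 and 1 with median scaling, 29 and 1 with spike-ins, 2 and 1 with the mean of all detected probes, 0 and 1 at a threshold of 1, and 7 and 3 with an offset of 0, an offset of 16 or no background correction. With the second brightest probe they were 3 and 1. Apart from the scalings, the cause of these shifts was not tested. With the deposited values they were 6 and 3, and differences there correlated with those used here at r = 0.96 over 38125 probes. The share of all genes past 1.5-fold was not computed for the alternatives, so these counts have no background beside them. The median of all genes was 0.15 with median scaling and 0.54 with spike-ins, where 64.3% and 87.5% of all genes were higher. No paired analysis was possible because there was 1 array a group. Dim genes (Kat2b, Kat6b, Hdac8, Hdac9, Hdac11, Sirt4), near a signal of 8, are limited by their height above background.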
